A study of Homo sapiens with 4 samples.

Results

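The cell cycle inhibitors that restrain the G1 kinases, and the D cyclins that activate them, were examined in HGC27 cells cultured without glucose, with or without lactate. The group held 10 genes chosen by name: the CIP/KIP inhibitors CDKN1A, CDKN1B and CDKN1C, the INK4 inhibitors CDKN2A, CDKN2B, CDKN2C and CDKN2D, and the D cyclins CCND1, CCND2 and CCND3. Each had a single row among the 60666 rows of the deposited table. HGC27 is an established human gastric cancer line. The no-glucose cells were kept in glucose-free DMEM with serum (n = 2). The lactate cells received 25 mM lactate in the same medium for 24 h (n = 2), so glucose was absent from both groups. No label gives the time of the no-glucose culture, so the groups are not known to match in time. The table gives TPM, a share of each library's transcripts scaled by transcript length, so levels can be compared between genes but the sequencing depth is unknown. No label says that the samples of a group came from separate cultures, and the p-values therefore measure only the spread between these libraries, which may be technical.

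Passage from G1 into S phase is driven by CDK4 and CDK6 bound to a D cyclin and then by CDK2 bound to cyclin E, which phosphorylate the retinoblastoma protein and release E2F factors. INK4 proteins bind CDK4 and CDK6 themselves and keep D cyclins from activating them. CIP/KIP proteins bind cyclin-CDK complexes, inhibit CDK2 and also help D cyclins assemble with their kinases. Growth factors raise D cyclins, whereas TGF-beta and FOXO signals are known inducers of individual inhibitors.

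The libraries listed between 23272 and 25764 rows above 0. Epithelial markers were low, with KRT18 between 0.19 and 0.92 TPM, KRT19 between 0 and 0.15 TPM, EPCAM between 0.13 and 0.8 TPM, CLDN4 between 0.49 and 1.51 TPM, CDH1 between 0.83 and 3.76 TPM and KRT8 between 1.87 and 6.07 TPM, and 5 of 6 gastric lineage markers were listed at 0 in every library. The mesenchymal filament gene VIM lay between 2747.15 and 2983.51 TPM, ZEB1 between 23.51 and 31.14 TPM and FN1 between 17.29 and 25.17 TPM, whereas CDH2, the fourth gene of the mesenchymal list, was at 0 to 0.08 TPM. The matrix genes COL1A1, DCN and LUM, more usual in fibroblasts, lay between 151.88 and 361.91 TPM. The remaining gastric marker, MUC6, lay between 0.91 and 4.19 TPM. The epithelial and gastric markers thus lend the label of a gastric cancer cell no backing, but their low values do not count against it either. The study describes ATP4B, a gastric marker listed at 0 here, as a parietal cell marker of normal stomach that is lost in gastric cancer. Cell identity was not tested. The 6 epithelial markers summed to 5.47 and 4.26 TPM without and 11.54 and 10.28 TPM with lactate. Of them, 4 had a mean under 1 TPM and were not tested. KRT8 went from 2.08 and 1.87 to 6.07 and 6 TPM, a rise of 1.24 ± 0.16 on the log2 scale (SE, limma adjusted p = 0.0328). CDH1 did not pass (limma adjusted p = 0.371). The mean of KRT18 was lower with lactate, at 0.31 against 0.635 TPM, and that of EPCAM higher, at 0.585 against 0.14 TPM. The sum is therefore not read as a shift of the whole list. The part of these differences in the results below was not tested.

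With lactate 1 CIP/KIP and 1 INK4 inhibitor rose, CDKN1A and CDKN2B, with ratios of mean TPM of 2.46 and 2.6, and no member of the group fell past the threshold. Differences were tested with limma on log2(TPM + 1) over the 15051 rows whose mean TPM was 1 or more, with Benjamini-Hochberg adjustment over those rows and a call at an adjusted p under 0.05. Of the 10 genes, 9 passed that filter and CDKN1C did not. Of the 9, 2 rose, 0 fell and 7 did not pass, and 4 had an unadjusted p under 0.05. Among all tested rows 4.69% rose and 1.90% fell, 6.59% in either direction. These shares depend on the processing, since median-ratio scaling gave 377 rises and 398 falls among the 15051 rows and protein-coding genes alone gave 1573 rises and 588 falls among 11917, with the same count of 2 members called under both. With so few members, the count itself is not read as a property of the group. Both calls were lost when low rows were kept, when the variance prior did not follow expression and whenever 1 library was left out, while the differences themselves stayed between 1.11 and 1.26 under leaving out a library. Over all rows, 0 to 8 calls were left with any 1 of the 4 libraries removed, so this limit holds for every call given here.

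CDKN1A encodes p21, which binds CDK2 complexes and the replication clamp PCNA. It was at 5.78 and 5.86 TPM without lactate and at 14.92 and 13.68 TPM with it. Both lactate libraries lay above both no-glucose libraries, and the gap was far wider than the spread within either group. The group means were 5.82 ± 0.0566 and 14.3 ± 0.877 TPM (SD, n = 2), a ratio of 2.46. The log2 difference was 1.16 ± 0.12 (SE, 95% interval 0.85 to 1.48, limma adjusted p = 0.0292), and its p ranked 90 among the 15051 rows. Without a filter on low values the adjusted p was 0.108, and with 1 library left out it lay between 0.135 and 0.283 while the difference stayed between 1.11 and 1.22. Whether more cells expressed CDKN1A, or each cell expressed more of it, cannot be told apart in bulk RNA, and the same holds for every gene below. CDKN1A (NCBI gene 1026) spans chromosome 6, 36676460 to 36687339 (GENCODE 29 on GRCh38, the assembly also called hg38). The noncoding gene DINOL, which overlaps it on the opposite strand, was listed at 0 in all 4 libraries.

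CDKN2B encodes p15, an INK4 inhibitor known as a target of TGF-beta signalling. Its level was 4.35 and 4.66 TPM in the no-glucose libraries and 11.33 and 12.14 TPM in the lactate libraries. The groups did not overlap, and the difference exceeded the spread between replicates in the same way as for CDKN1A. Means of 4.505 ± 0.219 and 11.7 ± 0.573 TPM gave a ratio of 2.6, and the log2 difference was 1.21 ± 0.13 (95% interval 0.88 to 1.54, limma adjusted p = 0.0297, rank 97). Leaving out 1 library gave differences between 1.16 and 1.26 with adjusted p between 0.135 and 0.283, and the adjusted p without a filter was 0.108. CDKN2B (NCBI gene 1030, chromosome 9, 22002903 to 22009363) lies inside the span of CDKN2B-AS1, a long noncoding RNA on the opposite strand. CDKN2B-AS1 was at 11.42 and 12.2 TPM without and 8.32 and 12.99 TPM with lactate, with overlapping groups and a log2 difference of -0.17 (limma adjusted p = 0.656). Whether counting used strand is not given in the sources used here, so reads of the overlapping pair may not be fully separated.

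**Figure D1:**
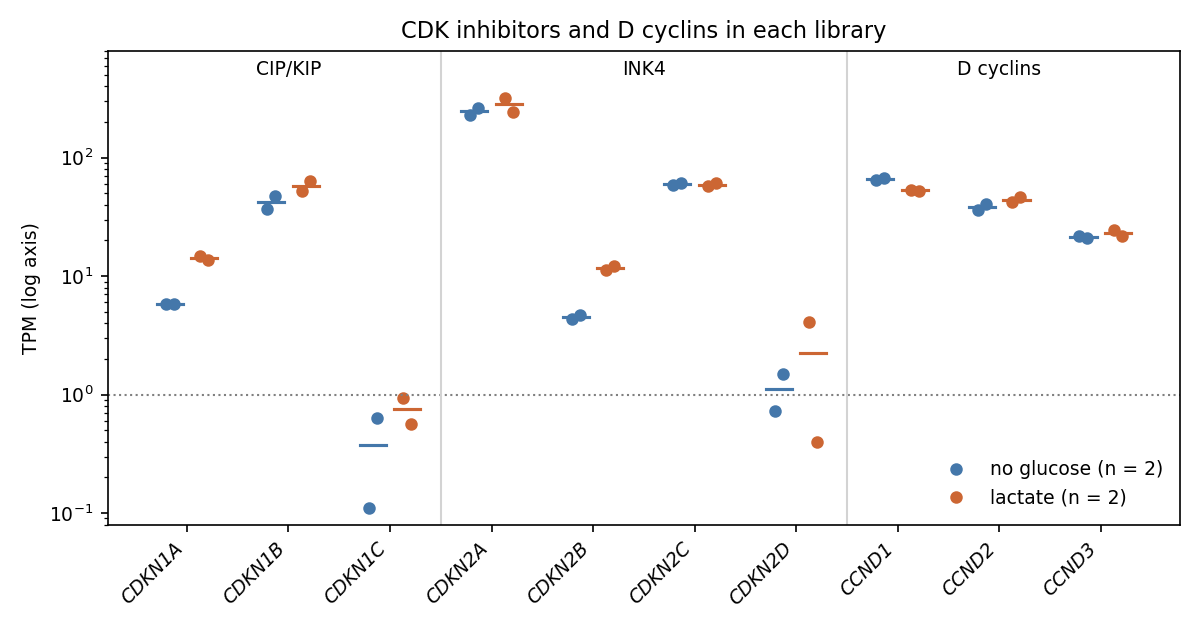
TPM (log axis) of each of the 10 genes in each library, with blue points for no glucose, orange points for lactate, short bars for the means of 2 libraries and a dotted line at 1 TPM. CDKN1A and CDKN2B sit at 4.35 to 5.86 TPM without lactate and at 11.33 to 14.92 TPM with it, whereas the points of CDKN2D in lactate are widely apart.

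The sequence before the start of CDKN1A and CDKN2B is shown because they were the 2 members called. The study also followed TEAD factors, whose core motif was among those searched. Regulation common to both genes was not tested. The sequences are from RefSeq promoter windows (GRCh38.p14), cut before the first exon that GENCODE 29 gives the gene within the window, so neither stretch holds a base of an exon of its own gene. Capitals mark matches to any of 8 short motifs, searched on both strands. These were the core site of TEAD factors written CATTCC, the E2F site written TTTCGCGC and the SP1 box written GGGCGG. The others were the SMAD site, for which the letters CAGAC were searched, the AP-1 site with the letters TGANTCA, the FOXO site with the letters GTAAACA, the E-box with the letters CACGTG and the TATA box with the letters TATAAA. No motif overlaps another in the stretches shown. The CDKN1A window is chr6:36678464-36678657 on the plus strand, in an intron of CDKN1A transcripts that start farther upstream. It begins within the span of DINOL, which ends at 36678559. The CDKN2B window is chr9:22009364-22009555 on the minus strand, within the span of CDKN2B-AS1.
CDKN1A: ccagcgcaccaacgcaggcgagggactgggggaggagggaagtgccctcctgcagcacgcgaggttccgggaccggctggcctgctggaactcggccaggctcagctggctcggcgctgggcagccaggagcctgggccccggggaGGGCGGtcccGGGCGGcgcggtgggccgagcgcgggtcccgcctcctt
CDKN2B: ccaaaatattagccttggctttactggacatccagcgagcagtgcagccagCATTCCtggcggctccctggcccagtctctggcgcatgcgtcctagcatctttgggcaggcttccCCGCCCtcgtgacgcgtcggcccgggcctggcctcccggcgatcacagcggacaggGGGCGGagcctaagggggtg
The CDKN1A stretch held 2 matches to the SP1 box, and the CDKN2B stretch held 2 SP1 boxes and 1 TEAD core. Over the whole 250 bases before the RefSeq start, CDKN1A had 4 SP1 boxes and no TEAD core, and CDKN2B had 2 SP1 boxes and 1 TEAD core. Of all 35116 RefSeq promoter windows, 42.6% held an SP1 box and 11.9% a TEAD core. RefSeq windows were found for 7 of the 10 genes. Each of these 7, called or not, had an SP1 box in at least 1 window, so SP1 boxes do not set the called genes apart. A TEAD core also stood in 2 of 3 windows of CDKN2C and 1 of 3 of CCND3, neither of which passed the test, and no window of a member held the E2F, AP-1, FOXO or TATA letters. SMAD letters were found in windows of CDKN2C and CDKN2A, against 38% of all windows, and E-box letters in windows of CDKN2C, against 6.34%. A match of letters is a description of sequence and not evidence of binding.

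The remaining CIP/KIP genes did not pass the test. CDKN1B encodes p27, which accumulates in resting cells and is induced by FOXO factors. It was at 37.23 and 47.47 TPM without lactate and at 52.61 and 63.81 TPM with it. The lactate libraries were both higher, but the gap between the nearest libraries of the groups was narrower than the distance between replicates of either group, and the log2 difference was 0.45 ± 0.16 (95% interval 0.04 to 0.87, limma adjusted p = 0.148). CDKN1C, an imprinted gene that encodes p57, was at 0.11 and 0.64 TPM without and 0.94 and 0.56 TPM with lactate. These groups overlapped, all values were under 1 TPM, and CDKN1C was not tested. CDKN1B therefore made up between 76.8% and 88.0% of the summed CIP/KIP transcripts in each library. CDKN1A made up 13.4% and 10.9% of that sum without lactate and 21.8% and 17.5% with it.

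Within the INK4 group the most abundant member did not move beyond its spread. CDKN2A, a tumour suppressor gene deleted in many cancers, encodes p16 and, from another first exon, the MDM2 inhibitor ARF, and a value per gene does not separate these products. It was at 229.01 and 262.28 TPM without lactate and at 321.36 and 241.69 TPM with it, so CDKN2A was clearly transcribed in these cells. The groups overlapped, with lactate replicate 1 the highest of the 4 libraries and lactate replicate 2 below the second no-glucose library. The log2 difference was 0.18 ± 0.16 (95% interval -0.22 to 0.59, limma adjusted p = 0.492), and it was -0.02 without lactate replicate 1. CDKN2A and CDKN2B are separated by 7602 bases on the same strand. The level of CDKN2A was 52.6 and 56.3 times that of CDKN2B in the no-glucose libraries and 28.4 and 19.9 times in the lactate libraries, a ratio within each library that no scaling of the library can change. With 2 libraries against 2, an exact permutation test cannot give a two-sided p under 0.33, and no test of this ratio was made.

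CDKN2C, which encodes p18, differed little between the groups. It was at 59.23 and 61 TPM without lactate and 58 and 60.77 TPM with it. The groups overlapped, and the log2 difference was -0.02 ± 0.09, with a 95% interval of -0.25 to 0.21 (limma adjusted p = 0.923), and it was -0.13 under median-ratio scaling. CDKN2D, which encodes the p19 INK4 protein, was low and erratic, at 0.72 and 1.5 TPM without and 4.11 and 0.4 TPM with lactate. Lactate replicate 1 was the highest and lactate replicate 2 the lowest of the 4 libraries, and the log2 difference of 0.37 ± 0.64 turned to -0.57 without lactate replicate 1 (limma adjusted p = 0.745 with all libraries and 0.365 without it).

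The difference of each tested gene with its interval is shown in the plot of differences. Of the 9 tested members, CDKN1A, CDKN1B and CDKN2B had a 95% interval wholly above 0 and CCND1 one wholly below 0. These intervals are not adjusted for the number of rows, and CDKN1B and CCND1 did not pass after adjustment.

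**Figure D2:**
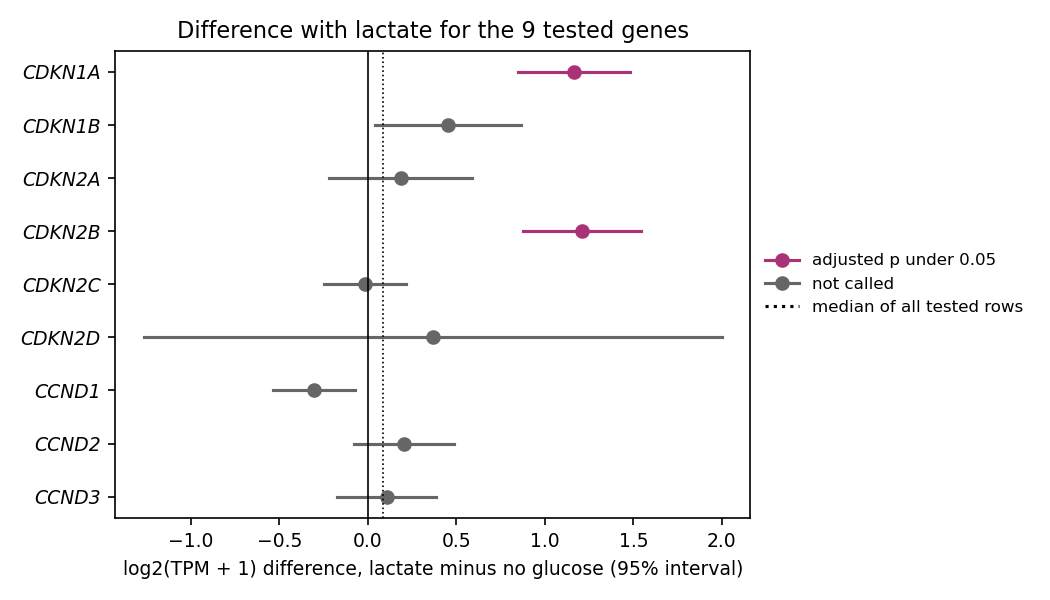
Difference in log2(TPM + 1), lactate minus no glucose, for the 9 tested genes, with points for the limma estimate (2 libraries per group) and lines for its 95% interval. CDKN1A at 1.16 and CDKN2B at 1.21 were called (purple), the other 7 were not (grey), and the dotted line marks the median of all tested rows, 0.083.

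None of the D cyclins passed the test. CCND1, the D cyclin induced by growth factor and Wnt signals and often amplified in tumours, was at 64.52 and 67.33 TPM without lactate and at 53.86 and 52.55 TPM with it. Both lactate libraries were lower than both no-glucose libraries, with a log2 difference of -0.30 ± 0.09 (95% interval -0.53 to -0.07), but the limma adjusted p was 0.107. CCND2 was at 36.27 and 40.53 TPM without and 42.3 and 46.39 TPM with lactate, which gave 0.20 ± 0.11 (95% interval -0.08 to 0.49, limma adjusted p = 0.297). The lactate libraries were again apart from the others, by less than the spread within either group. CCND3 was at 21.8 and 21.09 TPM without and 24.34 and 22.02 TPM with lactate, a difference of 0.11 ± 0.11 (95% interval -0.17 to 0.39, limma adjusted p = 0.569) that came to -0.0001 under median-ratio scaling.

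CCND1 thus lay lower and CCND2 and CCND3 slightly higher with lactate, without a call for any of them. Under median-ratio scaling the differences of CCND2 and CCND3 came to 0.095 and -0.0001. The share of each gene in the D cyclin sum is given as a description. The 3 genes summed to 122.6 and 128.9 TPM without lactate and to 120.5 and 121.0 TPM with it. CCND1 made up 52.6% and 52.2% of that sum without lactate and 44.7% and 43.4% with it. The share of CCND2 was 29.6% and 31.4% without lactate and 35.1% and 38.4% with it, and that of CCND3 lay between 16.4% and 20.2% with groups that did not overlap. All 3 shares come from the same sum, so they are not separate results, and they were not tested. Groups that did not overlap were common, at 58.4% of all tested rows.

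Annotation bears on D cyclin levels as well. The last 1399 bases of CCND1 overlap LTO1, a gene on the opposite strand, which fell from 18.44 and 17.46 TPM to 11.1 and 10.74 TPM (log2 difference -0.67 ± 0.11, limma adjusted p = 0.0410). CCND2 lies within AC008012.1, a coding annotation on the same strand, listed at 8 and 6.38 TPM without and 9.72 and 10.72 TPM with lactate. CCND2-AS1, on the opposite strand, overlaps CCND2 by 2413 bases and was at 0.79 to 1.87 TPM. RNU6-761P and AL513008.1, noncoding annotations within CCND3, were listed at 0 in every library. Outside the D cyclins, CDKN2B-AS1 also overlaps CDKN2A by 524 bases. AL359922.1, a coding annotation on the opposite strand, spans both CDKN2A and CDKN2B. It was at 0.88 TPM in no-glucose replicate 2 and at 0 in the other libraries. AC008115.3, a same-strand intronic annotation at 2.58 to 6.29 TPM, lies within CDKN1B. How RSEM divided reads between these pairs is unknown, so the levels of CCND1, CCND2, CDKN2A, CDKN2B and CDKN1B are uncertain to that extent. CCND1 spans chromosome 11, 69641087 to 69654474, CCND2 chromosome 12, 4273772 to 4305350, and CCND3 chromosome 6, 41934933 to 42050357.

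The groups did not overlap for 6 of the 9 tested members, 5 higher and 1 lower with lactate. This share is to be read against 58.4% of all tested rows whose groups did not overlap, 37.0% higher and 21.3% lower with lactate, so separation of the groups was common in these libraries. In order of mean level without lactate the members were CDKN2A, CCND1, CDKN2C, CDKN1B, CCND2, CCND3, CDKN1A, CDKN2B, CDKN2D and CDKN1C. Only CDKN1B and CCND2 overlapped among neighbours in that order. With lactate the order of means was CDKN2A, CDKN2C, CDKN1B, CCND1, CCND2, CCND3, CDKN1A, CDKN2B, CDKN2D and CDKN1C, where CDKN1B overlapped both CDKN2C and CCND1, and CDKN2D overlapped CDKN1C. CDKN1A and CDKN2B therefore kept their places below the D cyclins in both conditions. The rows most like CDKN1A in their pattern over the 4 libraries, by distance between centred log2 values among 13373 other rows with a symbol, were S1PR1, MMP2 and TEX19, with log2 differences of 1.16, 1.16 and 1.18. Without lactate S1PR1 was at 0.67 and 0.69 TPM and TEX19 at 0.53 and 0.51 TPM. Both passed the filter only through the lactate libraries. The rows nearest to CCND1 were DDX27, TONSL and TTN-AS1, at -0.30, -0.31 and -0.30. With 4 libraries, such likeness mostly repeats the difference between groups.

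Of the kinases that these proteins bind, CDK4 fell, and CDK6 and CDK2 did not pass the test. CDK4 was at 180.84 and 173.47 TPM without lactate and at 126.22 and 115.35 TPM with it, and it fell by 0.55 ± 0.09 on the log2 scale (limma adjusted p = 0.0410). CDK6 was at 4.89 and 5.53 TPM without and 7.98 and 10.27 TPM with lactate, a difference of 0.70 ± 0.17 that missed the threshold (limma adjusted p = 0.0710). CDK4 was thus the main kinase transcript in every library, at 37.0 and 31.4 times CDK6 without lactate and 15.8 and 11.2 times with it. CDK2, which CIP/KIP proteins inhibit, was at 98.3 and 81.96 TPM without and 87.41 and 88.73 TPM with lactate. Its groups overlapped, with a log2 difference of -0.03 ± 0.12 (limma adjusted p = 0.905). CDK6 and CDK2 were named for this comparison after their values were seen.

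Levels of inhibitors and cyclins relative to CDK4 and CDK6 together follow from these values. The summed INK4 transcripts were 1.58 and 1.84 times the summed CDK4 and CDK6 transcripts in the no-glucose libraries and 2.94 and 2.51 times in the lactate libraries. The summed D cyclins were 0.66 and 0.72 times the kinases without lactate and 0.898 and 0.963 times with it. CIP/KIP transcripts were 0.352 and 0.418 times the D cyclins without and 0.568 and 0.645 times with lactate. In each of these ratios the groups did not overlap, as for 58.4% of all tested rows. The INK4 sums themselves did overlap, at 293.3 and 329.4 TPM without and 394.8 and 315 TPM with lactate. The first 2 ratios share the fall of CDK4 in their denominator, and transcript ratios are not ratios of proteins. The INK4 sum is mostly CDKN2A and the CIP/KIP sum mostly CDKN1B, and neither gene was called. These sums were not tested.

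**Figure D3:**
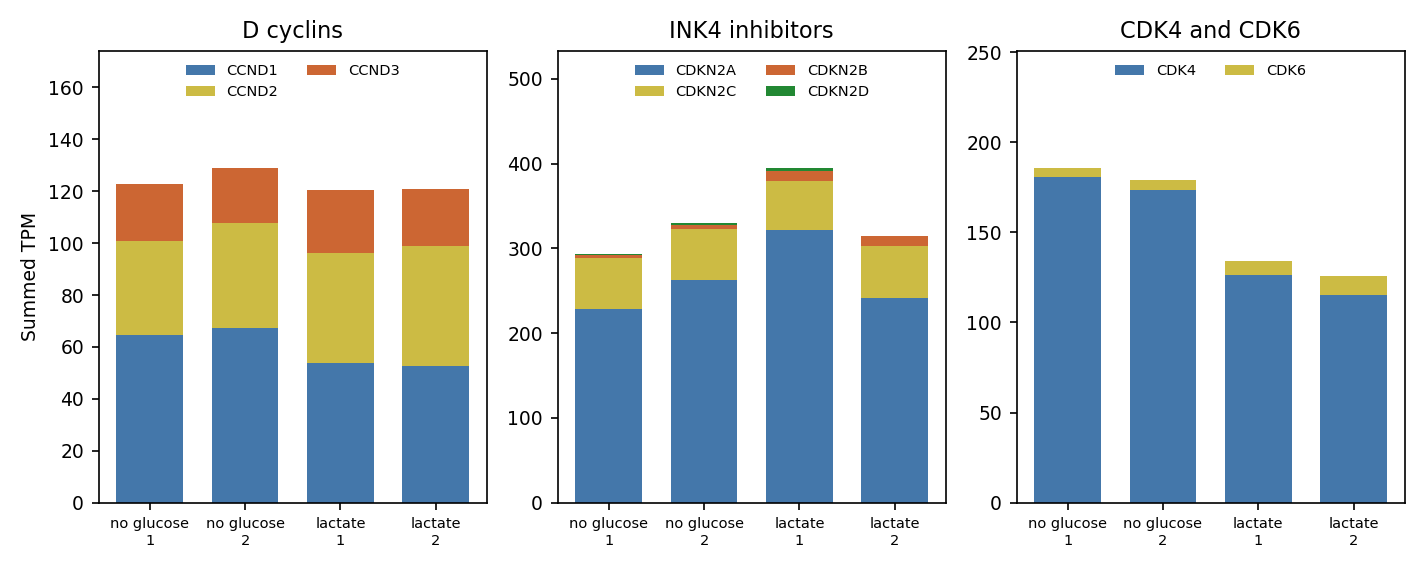
Summed TPM (linear axis from 0) of the D cyclins, the INK4 inhibitors and the kinases CDK4 and CDK6 in each of the 4 libraries, with a colour for each gene. The D cyclin bars lie between 120.5 and 128.9 TPM with a smaller CCND1 part in lactate, and the kinase bars drop from 185.7 and 179 TPM to 134.2 and 125.6 TPM.

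Around the inhibitors and D cyclins, 91 genes of the G1/S pathway in 5 lists were all tested. Of them 4 rose, 11 fell and 76 did not pass, beside 4.69% and 1.90% of all rows. None of the 91 passed with any 1 of the 4 libraries removed, with low rows kept, or without the variance trend. The falls lay in 3 of the lists. Of 11 G1 kinases and cyclins, 0 rose and 3 fell, with a median log2 difference of -0.03 beside 0.083 for all tested rows. Besides CDK4 these were CDC25A, the phosphatase that activates CDK2, which went from 17.86 and 17.35 to 10.57 and 10.02 TPM, and CCNE2, a cyclin E that partners CDK2, from 13.12 and 14.93 to 7.17 and 8.48 TPM. Their log2 differences were -0.72 ± 0.11 and -0.77 ± 0.14 (limma adjusted p = 0.0378 and 0.0470).

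Among 18 genes of the RB and E2F families and their MuvB partners, 0 rose, 2 fell and 16 did not pass (median -0.17). RBBP4, a histone-binding subunit of MuvB and other chromatin complexes, fell by 0.70 ± 0.09 and the repressor E2F8 by 0.78 ± 0.13 on the log2 scale (limma adjusted p = 0.0318 and 0.0410). Of 12 genes known as E2F targets, 6 fell and none rose, beside 1.90% and 4.69% of all tested rows. All 12 lay below 0, with a median of -0.53 beside 0.083 for all tested rows. MCM3 and MCM5, parts of the replicative helicase, went from 156.9 and 154.93 to 101.98 and 96.3 TPM and from 69.61 and 66.74 to 44.87 and 42 TPM. RRM2, a subunit of ribonucleotide reductase, fell by 0.62 ± 0.08 and TYMS, thymidylate synthase, by 0.54 ± 0.08. These calls had limma adjusted p between 0.0328 and 0.0376. Several of these genes belong to the replication machinery, so the list was not independent of what was already known of these libraries.

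The other lists held factors that act on the members. Of 16 genes of protein turnover, which include the ubiquitin ligases for p21, p27 and the D cyclins, 1 rose and none fell (median -0.02). That gene was GSK3B, a kinase that phosphorylates cyclin D1 and marks it for export and degradation. GSK3B went from 23.52 and 24.42 TPM to 100.46 and 60.62 TPM, a log2 difference of 1.66 ± 0.24 (limma adjusted p = 0.0352), with the lactate libraries far apart from each other. Of 34 regulators of transcription known to act on the members, 3 rose, 0 fell and 31 did not pass (median 0.16). STAT3, which can induce CCND1 and CDKN1A, rose by 0.80 ± 0.11 (limma adjusted p = 0.0331). FOXO4, a FOXO factor that can induce CDKN1B, rose from 1.24 and 1.26 to 3.97 and 3.89 TPM (limma adjusted p = 0.0410). CBX7, a Polycomb protein known to repress CDKN2A, rose from 0.61 and 0.77 to 3.02 and 2.95 TPM (limma adjusted p = 0.0456). Both no-glucose values of CBX7 were under 1 TPM. It passed the filter only through the lactate libraries, so its call carries little weight. SMAD3, which carries TGF-beta signals, was at 17.22 and 16.97 TPM without and 18.66 and 18.12 TPM with it. It did not pass (limma adjusted p = 0.575), and it was singled out after its values were seen.

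**Figure D4:**
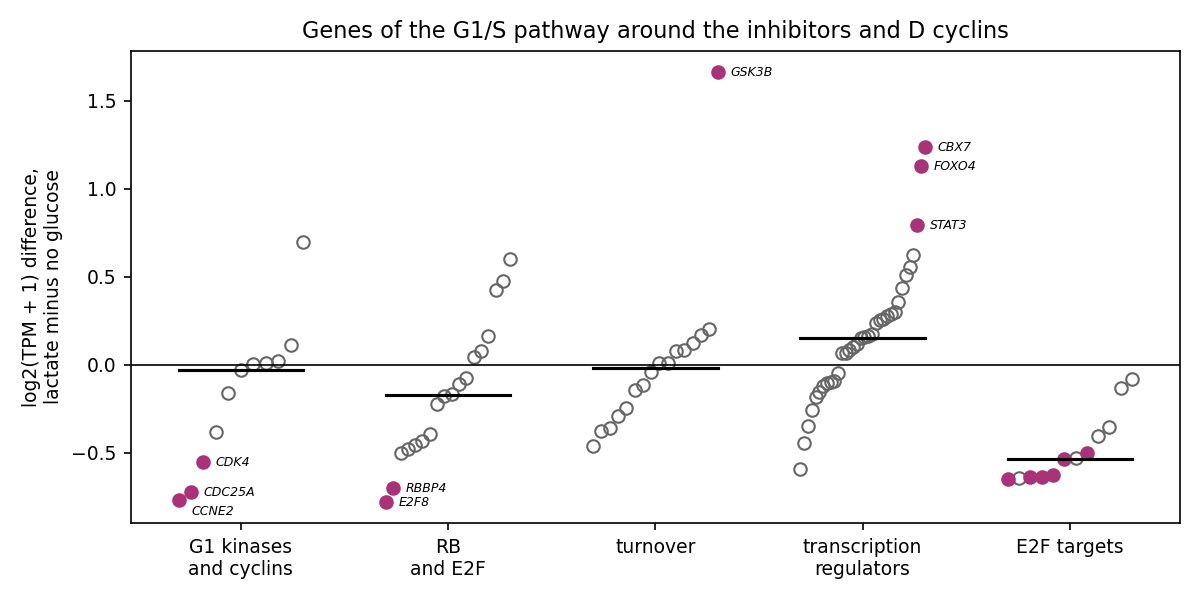
Difference in log2(TPM + 1), lactate minus no glucose, for 91 genes in 5 lists, with a point for each gene, filled where the adjusted p was under 0.05, and a bar for the list median. All 12 E2F targets lie below 0 with 6 called, and GSK3B at 1.66 is the highest point.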

How the data were processed

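RNA sequencing was performed by the authors on 4 libraries. Their deposited table holds TPM values with 2 decimals for 60666 rows (column totals 995439 to 996089). The submitters' processing notes name RSEM 1.3.3 and hg38. Aligner, annotation and strand setting: not given in the sources used here. TPM keeps no depth, so no counting interval was computed and no count model was fitted. Samples were grouped by their titles. The test was that of limma 3.58.1 under R 4.3.3 (group as the only term, variance trend, two-sided) on log2(TPM + 1) of rows with a mean TPM of 1 or more. It was also run on simulated data. Those data were drawn from the spread that limma itself fitted, so they cannot show that the real libraries meet its assumptions. An error on a difference is its SE, and intervals use the moderated degrees of freedom. The 10 members, the lists and the tests were chosen with earlier results of these data known. Named genes are the members, neighbours whose annotation overlaps a member, up to 4 called genes with the smallest p per list and the 3 nearest patterns to CDKN1A and CCND1. In a list with no call, the 2 smallest p would have been named. Gene coordinates are those of GENCODE 29, and 25526 rows were matched to a RefSeq gene type by NCBI gene ID. Alternatives were a pseudocount of 0.1, no filter, a mean of 5 TPM, protein-coding genes, median-ratio scaling, no variance trend, a replicate block and leaving out each library.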

Additional observations from a re-analysis of the deposited data

How the results depend on the processing

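With 1 library left out the fit has 1 residual degree of freedom, and a group reduced to 1 sample borrows its spread from the other group. Calls over all rows then numbered 0 to 8 (0 to 6 up and 0 to 2 down), members called 0 to 0, and pathway genes 0 to 0 in either direction. Log2 differences lay between 1.11 and 1.22 for CDKN1A, 1.16 and 1.26 for CDKN2B, -0.02 and 0.39 for CDKN2A, -0.0507 and 0.0155 for CDKN2C, and -0.57 and 1.301 for CDKN2D, none called. CDKN2A turned without lactate replicate 1 (-0.02), CDKN2C without no glucose replicate 2 (0.0033) or lactate replicate 1 (0.0155), and CDKN2D without lactate replicate 1 (-0.57). Without a filter there were 0 calls over 30146 rows (0 up, 0 down, 5072 with an unadjusted p under 0.05), 0 members and 0 pathway genes, and CDKN1A (1.16) and CDKN2B (1.21) lost their calls. Without a variance trend there were 4 calls (2 up, 2 down), 0 members and 0 pathway genes up or down, with limma adjusted p = 0.0598 for CDKN1A at 1.16 and CDKN2B at 1.21. Restriction to protein-coding genes raised the calls to 2161 (1573 up, 588 down), with 7 pathway genes up and 18 down, and a 5 TPM filter 442 falls. Median-ratio scaling moved the median of all rows from 0.083 to -0.014, gave 377 rises, so that 48.6% of calls rose against 71.2%, and took CCND3 to -0.0001. Replicate 1 minus replicate 2 correlated at 0.035 between the groups, so the numbers are not taken to pair the libraries. With the replicate block CDKN1B at 0.45 passed (limma adjusted p = 0.0498), 2 pathway genes rose, and no other member changed its call. The cause of these changes was not tested, apart from the fewer samples or different rows that a setting itself brings.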

Other observations

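Genes that lie near the members on their chromosomes were read as a description of the surroundings. Of 34 such neighbours, 8 lay under the filter, and of the 26 tested 1 rose, 2 fell and 23 did not pass (median -0.05), beside 4.69% and 1.90% of all tested rows and their median of 0.083. At the INK4 locus, MTAP, a methionine salvage enzyme, was at 29.41 and 38.54 TPM without and 24.26 and 29.61 TPM with lactate (log2 difference -0.32 ± 0.17, limma adjusted p = 0.294), so CDKN2B was the only called gene among CDKN2A, CDKN2B, CDKN2B-AS1 and MTAP. Beside CDKN1C, NAP1L4, a histone chaperone gene, fell from 102.56 and 108.23 to 70.39 and 75.98 TPM (limma adjusted p = 0.0454), while KCNQ1OT1, the imprinted noncoding RNA of that cluster, was at 0.89 to 1.01 TPM and under the filter. Beside CDKN2D, SLC44A2, a choline transporter, rose from 31.16 and 28.71 to 64.01 and 67.59 TPM (log2 difference 1.11 ± 0.10, limma adjusted p = 0.0244). LTO1, which overlaps CCND1, was the other neighbour that fell. MTAP, NAP1L4, KCNQ1OT1 and SLC44A2 were singled out after their values were seen.

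Members of the RB family that pair with E2F repressors had unlike values without a call. RBL1 was at 6.33 and 7.67 TPM without and 4.63 and 4.8 TPM with lactate, and RBL2, more typical of resting cells, at 17.2 and 20.31 TPM without and 23.79 and 29.19 TPM with lactate. Their log2 differences were -0.48 ± 0.16 and 0.47 ± 0.15 (limma adjusted p = 0.124 and 0.119). RB1 itself was at 20.64 and 21.15 TPM without and 21.19 and 23.06 TPM with it. These 3 were named after their values were seen.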
